A study of Mus musculus with 4 samples.

Results

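The prostaglandin genes described here are 10 genes chosen by symbol from the deposited tables: the cyclooxygenases Ptgs1 and Ptgs2, the terminal synthases Ptgds, Hpgds, Ptges and Ptgis, the oxidoreductases Hpgd and Cbr2, and the receptors Ptger2 and Ptger4. All 10 were found among the 24346 gene symbols of the tables, and 9 of them had a mean of at least 1 FPKM over the libraries, as did 13200 genes in all. Ptger2 did not, and its values are given without a test. RNA sequencing was done on primary cultures from the mouse inner ear, 2 labelled as vestibular cells (from the balance organs; V1 and V2) and 2 as cochlear cells (from the hearing organ; C1 and C2). The labels give no strain, age, treatment or culture time for either group, and the comparison asks which genes differ between cultures from these parts of the ear. The labels number the libraries 1 and 2 in each group without stating whether each came from its own culture or animal; the p-values measure only the spread between these libraries, which may be technical.

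Prostaglandins are short-lived lipid signals made from arachidonic acid, which phospholipases A2 release from membranes. The cyclooxygenases turn it into prostaglandin H2, and terminal synthases then make prostaglandin D2 (Ptgds, Hpgds), E2 (Ptges) or prostacyclin (Ptgis). The products act on G protein-coupled receptors of neighbouring cells and are inactivated by oxidation, whose first step is made by the enzyme of Hpgd. Ptgds protein is also a secreted carrier of the lipocalin family and is a known product of the meninges, while Hpgds is known from macrophages, mast cells and some T cells.

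FPKM, the deposited unit, is fragments scaled by transcript length and by a measure of library size, so levels of different genes can be set side by side. Which measure of library size was used is not stated. The FPKM sums ran from 479380 to 519122 over the libraries. How many fragments each library held is unknown, and no counting interval is given. Between vestibular library 1 and cochlear library 2, 20 of 34 short noncoding RNA genes lay at a common ratio of 1.16 or a whole-number multiple or fraction of it, within 0.1 percent, which is too few to recover whole fragments. Cochlear library 2 stood apart from the other 3 in macrophage genes. All 19 macrophage genes found were lowest there, against 28.1% of all genes kept. The summed level of the 19 was 32.0 FPKM against 7281 to 9650 in the other libraries, and 14 of them were under 1 FPKM. Vestibular library 2 stood apart in the opposite sense for cartilage and pigment cell genes, with 7 of 8 cartilage and 6 of 9 melanocyte genes that reached 1 FPKM highest there. All 12 epithelial genes kept had a lower mean in vestibular cultures (median log2 difference -2.25), 11 of them with no overlap between groups and 11 lowest in V2. Among all genes kept, 28.4% had both cochlear libraries above both vestibular libraries, and 29.8% were lowest and 30.1% highest in V2. Their list summed to 1044 (V1), 109 (V2), 2029 (C1) and 2434 FPKM (C2). Of the genes that mark sensory hair cells 3 of 10 were kept, with Atoh1 at most 0.10 and Pou4f3 at most 1.0 FPKM, and the list summed to 30.2 to 42.2 FPKM. Of supporting cell genes 6 of 10 were kept, with Sox2 at most 1.86 FPKM but Otoa at 9.40 (V1), 3.61 (V2), 29.0 (C1) and 129 FPKM (C2), and the list summed to 44.1 (V1), 32.4 (V2), 98.6 (C1) and 178 FPKM (C2).

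Promoter sequences are shown for the 5 members whose window held a match to one of the motifs searched (Ptgds, Hpgds, Hpgd, Ptgs1 and Ptgs2) and for Cbr2, the member with the lowest p between groups, whose window held none. A promoter was listed in RefSeq (GRCm38.p6) for 9 of the 10 members; Ptgis had no entry. The windows of Ptges, Ptger2 and Ptger4, also without a match, are not shown. Each line runs 5′ to 3′ from 200 bases before the RefSeq transcript start to 30 bases after it. Capitals mark matches on either strand to 6 motifs: the core promoter motif TATAAA, the AP-1 motif TGACTCA, the core of the cAMP response element TGACG, the E-box CACGTG, the C/EBP motif TTGCGCAA, and GAGGAAGT, bound by PU.1, a factor of myeloid cells. The windows lie at chr2:25469720-25469949 on the minus strand, chr6:65144701-65144930 on the minus strand, chr8:56294352-56294581 on the plus strand, chr2:36230226-36230455 on the plus strand, chr1:150099831-150100060 on the plus strand and chr11:120731992-120732221 on the minus strand, in the order printed.
Ptgds: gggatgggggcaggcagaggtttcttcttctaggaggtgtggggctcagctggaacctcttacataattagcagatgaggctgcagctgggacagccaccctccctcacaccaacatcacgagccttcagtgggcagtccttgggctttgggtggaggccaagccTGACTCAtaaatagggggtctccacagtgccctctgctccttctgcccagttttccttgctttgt
Hpgds: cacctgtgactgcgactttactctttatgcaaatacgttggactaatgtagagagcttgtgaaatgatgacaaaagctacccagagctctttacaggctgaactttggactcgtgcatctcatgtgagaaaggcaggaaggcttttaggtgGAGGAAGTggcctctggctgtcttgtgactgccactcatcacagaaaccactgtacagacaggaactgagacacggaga
Hpgd: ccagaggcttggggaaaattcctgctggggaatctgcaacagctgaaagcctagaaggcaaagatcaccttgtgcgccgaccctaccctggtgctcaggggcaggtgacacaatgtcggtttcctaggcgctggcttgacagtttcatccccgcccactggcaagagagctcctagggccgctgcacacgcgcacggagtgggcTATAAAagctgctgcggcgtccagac
Ptgs1: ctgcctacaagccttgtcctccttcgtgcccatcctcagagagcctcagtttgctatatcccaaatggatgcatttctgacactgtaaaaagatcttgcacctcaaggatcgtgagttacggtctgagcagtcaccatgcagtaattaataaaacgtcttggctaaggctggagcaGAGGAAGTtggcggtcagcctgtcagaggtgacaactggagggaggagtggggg
Ptgs2: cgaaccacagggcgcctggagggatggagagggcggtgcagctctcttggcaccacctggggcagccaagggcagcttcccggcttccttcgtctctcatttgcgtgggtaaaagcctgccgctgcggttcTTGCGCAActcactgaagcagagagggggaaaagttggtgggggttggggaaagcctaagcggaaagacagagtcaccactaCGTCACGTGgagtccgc
Cbr2: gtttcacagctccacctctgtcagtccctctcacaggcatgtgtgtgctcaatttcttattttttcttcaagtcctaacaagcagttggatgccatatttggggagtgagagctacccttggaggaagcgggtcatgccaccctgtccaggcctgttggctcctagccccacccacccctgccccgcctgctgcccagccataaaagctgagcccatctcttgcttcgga
The GAGGAAGT motif began 49 bases before the start of Hpgds and 24 bases before that of Ptgs1, and 2.44% of all 32851 promoter windows of the same length held it. Ptgs2 held TTGCGCAA at 69 bases before the start, a motif in 0.149% of windows, and, 14 and 17 bases into the transcript, TGACG on the minus strand (17.9% of windows) and CACGTG (6.05%), which overlap. Ptgds held TGACTCA at 35 bases before the start (4.15% of windows), and Hpgd held TATAAA (10.7% of windows) from base 5 of the RefSeq transcript. These positions depend on the start used: the outermost GENCODE start is the same as that of RefSeq for Ptgs1 and Ptgs2, but lies 33 bases downstream for Hpgd, which puts TATAAA before the start, and 297 and 178 bases upstream for Ptgds and Hpgds. The motifs were chosen with earlier results or these sequences known, so the percentages do not show that a match is unusual. A match is a description of the letters and not evidence of binding.

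No member passed the threshold for a difference between vestibular and cochlear cultures, 0 of 9 tested, by limma on log2(FPKM + 1) with Benjamini-Hochberg adjustment over all 13200 genes kept and a threshold of 0.05. The same fit called 4 genes in all, 0.0303% of those kept, each higher in cochlear cultures. At an unadjusted p under 0.05, 3 members (Cbr2, Ptgis and Ptgds) were higher in vestibular and 1 (Ptgs2) was higher in cochlear cultures, against 7.61% and 10.6% of all genes. Of the 10 members, Ptgds, Hpgds, Ptgis, Hpgd and Cbr2 had both vestibular libraries above both cochlear libraries, and Ptgs2 had both cochlear libraries above. Among all genes kept, 26.9% had the first pattern and 28.4% the second. The groups overlapped in Ptgs1, Ptges, Ptger2 and Ptger4. With 2 libraries against 2, an exact permutation test cannot give a two-sided p under 0.333, so every adjusted p leans on the variance that limma pools over the genes.

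**Figure D1:**
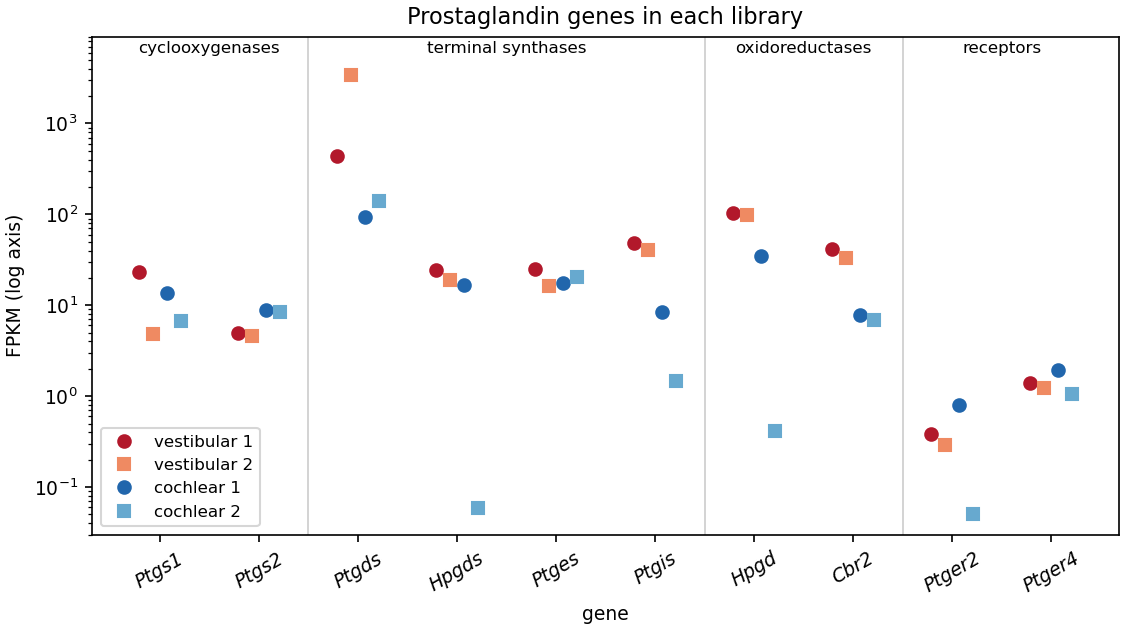
FPKM of the 10 prostaglandin genes (log axis) in each library; red and orange points are vestibular, blue points cochlear, circles library 1 and squares library 2. Ptgds is the highest of the 10 in every library, and Hpgds (0.0584 FPKM) and Hpgd (0.418 FPKM) lie far below their other values in cochlear library 2.

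The cyclooxygenases differed in how they varied. Ptgs2, the inducible enzyme, stood at 4.97 (V1), 4.57 (V2), 8.93 (C1) and 8.52 FPKM (C2). Both cochlear libraries were higher, with a mean of 8.73 ± 0.290 FPKM against 4.77 ± 0.287 (SD, n = 2 each). Epithelial genes were also higher in cochlear libraries, 11 of 12 without overlap against 28.4% of all genes kept. Their part in the Ptgs2 level was not tested. The log2 difference, vestibular minus cochlear, was -0.75 (SE 0.13) and did not pass (limma adjusted p = 0.145, and 0.141 to 0.611 over the alternatives run). Its value stayed between -0.86 and -0.70 in all of these. Ptgs2 is annotated on mm10 at chromosome 1, 150100031 to 150108227, on the plus strand, as protein-coding.

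Ptgs1, the constitutive enzyme, stood at 23.4 (V1), 4.82 (V2), 13.5 (C1) and 6.72 FPKM (C2). V1 and C1 were high, V2 and C2 were low, and the groups overlapped. The log2 difference of 0.17 (SE 0.84, limma adjusted p = 0.927) became -0.86 without V1, -0.29 without C2 and 1.20 without V2. Ptgs1 made up 82.5% and 60.3% of the summed cyclooxygenase FPKM in vestibular and cochlear library 1, and 51.3% and 44.1% in vestibular and cochlear library 2. Ptgs1 lies at chromosome 2, 36230426 to 36252272, on the plus strand.

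Ptgds, the lipocalin-type prostaglandin D synthase, had the highest level of the 10 genes in every library. It stood at 443 (V1), 3402 (V2), 94.2 (C1) and 139.9 FPKM (C2). The groups did not overlap, but the vestibular libraries lay farther apart from each other than vestibular library 1 did from either cochlear library on the FPKM scale. The log2 difference was 3.41 (SE 1.10, limma adjusted p = 0.257), and it was 1.94 without vestibular library 2 and 4.88 without vestibular library 1. Ptgds lies at chromosome 2, 25466709 to 25470046, on the minus strand.

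Several markers of cell types known to make Ptgds were also highest in vestibular library 2. Of 10 meningeal and arachnoid genes that reached 1 FPKM, 7 were highest there, among them the sulfate transporter gene Slc13a4 at 18.7 FPKM against 0.392 to 2.47 elsewhere and the transcription factor gene Zic1 at 19.9 against 0.631 to 3.20. The summed level of that list did not follow, at 356 (V1), 401 (V2), 526 (C1) and 711 FPKM (C2), and Aldh1a2 and Nov, its most abundant genes, were not highest in vestibular library 2. The arachnoid transporter genes Slc6a13 and Slc22a6 were at or near 0 in all libraries (at most 0.0951 FPKM). The melanocyte gene Dct had 166 FPKM in vestibular library 2 and at most 0.561 elsewhere. The summed melanocyte list had 256 FPKM in V2 against 55.5 in V1, 119 in C1 and 105 in C2. Most of the V2 sum came from Dct. Without it, the V2 sum would lie below those of C1 and C2, although 6 of 9 listed genes were highest in V2. Lists of other cell types were also high in V2. The cartilage list summed to 815 (V1), 4938 (V2), 255 (C1) and 271 FPKM (C2). Of 13 fibroblast genes 8 were highest in V2, as were 30.1% of all genes kept, while the epithelial list had its lowest sum there. The part of any of these cell types in the Ptgds level was not tested.

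Hpgds, the other prostaglandin D synthase, has no sequence relation to Ptgds and a different pattern. It stood at 24.6 (V1), 18.9 (V2), 16.8 (C1) and 0.0584 FPKM (C2). The other 3 libraries lay within a narrow range, and cochlear library 2 alone was near 0. The log2 difference was 2.38 (SE 1.5, limma adjusted p = 0.459), and it was 0.35 without C2, 4.42 without C1 and 3.73 with a pseudocount of 0.1. The macrophage list moved with it: the myeloid growth factor receptor gene Csf1r had 219 (V1), 169 (V2), 116 (C1) and 0.148 FPKM (C2). Of 8 mast cell markers 6 were listed at 0 in every library, which in these files may be a failed estimate, and Hdc and Ms4a2 had at most 0.0956 FPKM. Fewer macrophages and less RNA of these genes per cell cannot be told apart in bulk cultures, and the part of macrophages in the Hpgds level was not tested. Hpgds lies at chromosome 6, 65117293 to 65144908, on the minus strand.

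Ptgis, the prostacyclin synthase, stood at 48.8 (V1), 40.8 (V2), 8.43 (C1) and 1.46 FPKM (C2). Both vestibular libraries were far above both cochlear libraries. The means were 44.8 ± 5.64 and 4.95 ± 4.93 FPKM (SD, n = 2 each), a ratio of 9.06. The log2 difference of 3.24 (SE 0.72) had a 95% interval of 1.17 to 5.32 and did not pass (limma adjusted p = 0.189). Without C2, the library that nearly lacked macrophage genes, it was 2.27. Fibroblasts and endothelium are known sources of prostacyclin synthase. Of 10 endothelial genes 5 were kept, with a list sum of 28.8 (V1), 54.7 (V2), 123 (C1) and 303 FPKM (C2), most of it from Emcn, while Pecam1 had at most 0.155 FPKM and Cldn5 was listed at 0. Fibroblast genes were higher in vestibular libraries in 13 of 13 listed genes (median log2 difference 1.45, against 0.01 over all genes), and their summed level was 3452 (V1), 6621 (V2), 1561 (C1) and 1053 FPKM (C2). None of the 13 passed, and the part of fibroblasts, or of the epithelial genes that were lower in vestibular libraries, in the Ptgis level was not tested. Ptgis lies at chromosome 2, 167191805 to 167240604, on the minus strand.

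Ptges, the inducible prostaglandin E synthase, stood at 25.4 (V1), 16.5 (V2), 17.4 (C1) and 20.3 FPKM (C2). The groups overlapped, and the highest library had only 1.54 times the FPKM of the lowest. The log2 difference was 0.11 with a 95% interval of -0.61 to 0.83 (limma adjusted p = 0.829), and it was -0.18 without V1 and 0.41 without V2. Ptges lies at chromosome 2, 30889471 to 30929863, on the minus strand.

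Within a library, shares among synthases do not depend on the scaling between libraries. Over 8 terminal prostanoid synthase genes (Ptgds, Hpgds, Ptges, Ptgis, Ptges2, Ptges3, Tbxas1 and Akr1b3), Ptgds held 69.1% (V1), 95.6% (V2), 39.9% (C1) and 57.4% (C2) of the summed FPKM. Fam213b, a prostaglandin F synthase gene with 34.1 (V1), 21.4 (V2), 25.3 (C1) and 19.7 FPKM (C2), was not among the 8. The low Akr1b3 values in V2 (0.00131 FPKM) and C2 (0 FPKM) may be failed estimates. With Ptgds set aside, Ptgis held 24.6% (V1), 26.3% (V2), 5.94% (C1) and 1.41% (C2). Ptges held 12.8%, 10.6%, 12.3% and 19.6% of the same sum in vestibular 1, vestibular 2, cochlear 1 and cochlear 2, and Hpgds 12.4%, 12.2%, 11.8% and 0.0561%. Ptgis thus separated the groups, and Hpgds separated only cochlear library 2 from the rest. The largest share of the 8 in each library after Ptgds belonged to Ptges3, a cytosolic synthase that is also the co-chaperone p23. With Ptgds set aside, Ptges3 also separated the groups, in the other direction, at 31.2% (V1), 41.2% (V2), 49.6% (C1) and 66.8% (C2).

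**Figure D2:**
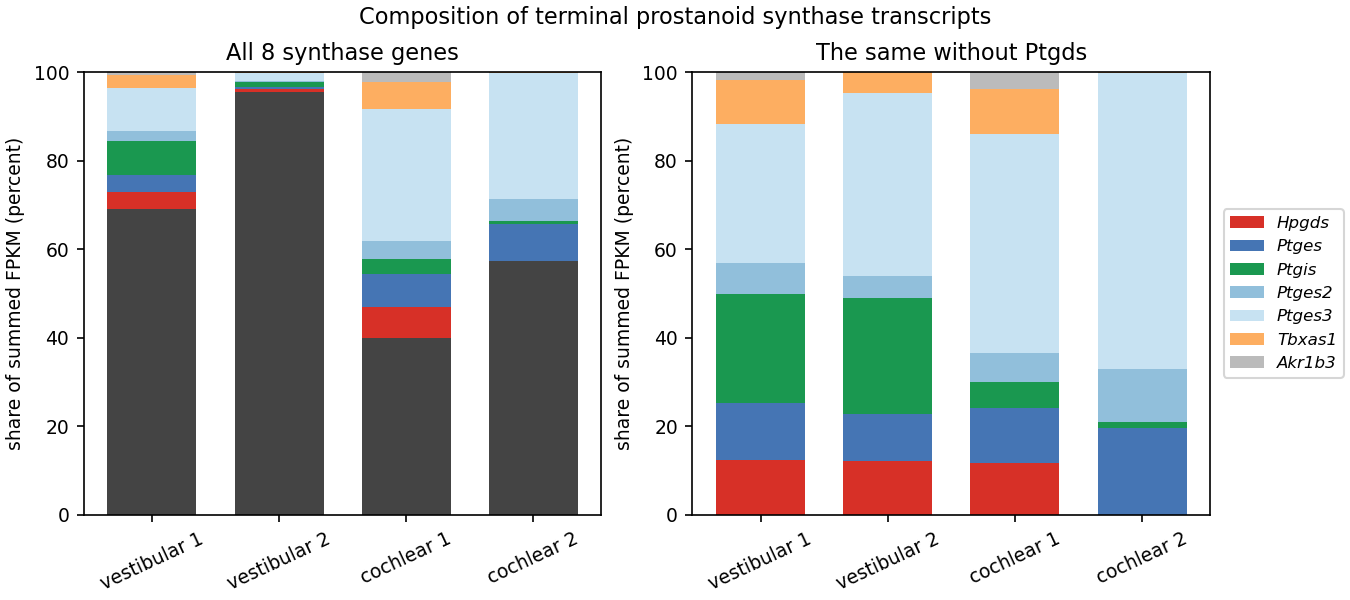
Share of the summed FPKM (percent) that each of 8 terminal synthase genes holds in each library, with Ptgds (dark grey, left) and without it (right). Ptgds fills 95.6% of the bar of vestibular library 2; on the right, Ptgis fills 24.6% and 26.3% of the vestibular bars and 5.94% and 1.41% of the cochlear bars.

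Hpgd, the dehydrogenase that starts prostaglandin inactivation, was the second most abundant of the 10 genes in the vestibular libraries and in cochlear library 1. It stood at 104 (V1), 99.4 (V2), 34.9 (C1) and 0.418 FPKM (C2). Both vestibular libraries were above both cochlear libraries, and cochlear library 2 was again near 0. The log2 difference was 3.85 (SE 1.71, limma adjusted p = 0.341), and 1.52 without C2 and 6.18 without C1. The macrophage list, as for Hpgds, was lowest in the same library, and its part in the Hpgd level was not tested. Hpgd lies at chromosome 8, 56294585 to 56321043, on the plus strand.

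Cbr2, a carbonyl reductase of the short-chain dehydrogenase family, came nearest to the threshold. It stood at 42.0 (V1), 32.8 (V2), 7.83 (C1) and 6.88 FPKM (C2), so that the groups lay well apart and the libraries of each group close together. The means were 37.4 ± 6.51 and 7.36 ± 0.676 FPKM (SD, n = 2 each), a ratio of 5.08. The log2 difference of 2.19 (SE 0.17) had a 95% interval of 1.70 to 2.68 and a limma adjusted p of 0.0754 (0.0660 to 0.522 over the alternatives run). It ranged from 2.02 to 2.37 when single libraries were left out. Cbr2 did not share the near absence of macrophage genes in cochlear library 2, where it held 6.88 FPKM against 7.83 in cochlear library 1. Fibroblast genes, higher in vestibular libraries, and epithelial genes, lower there, differed between the same groups, and their part in the Cbr2 level was not tested. Cbr2 lies at chromosome 11, 120729489 to 120732114, on the minus strand.

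**Figure D3:**
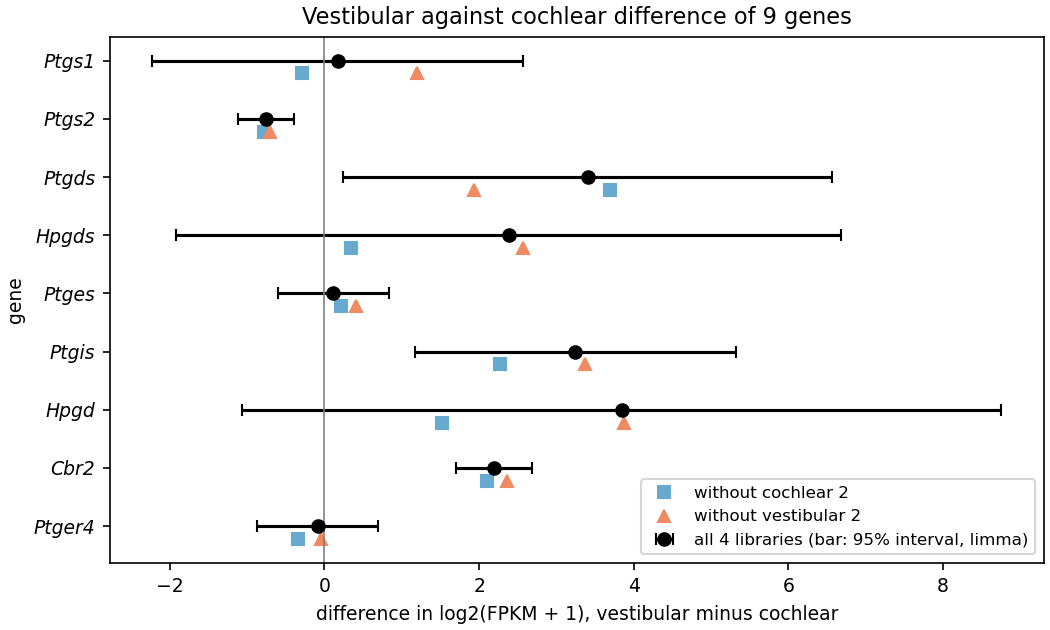
Difference in log2(FPKM + 1), vestibular minus cochlear, for the 9 members tested; black points are limma estimates from all 4 libraries with 95% intervals, squares the estimates without cochlear library 2 and triangles those without vestibular library 2. The estimates for Cbr2 (2.19) and Ptgs2 (-0.75) hardly move, while that of Hpgds goes from 2.38 to 0.35 and that of Hpgd from 3.85 to 1.52 without cochlear library 2.

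The receptors were the lowest of the 10 genes in every library but C2, where Hpgd and Hpgds lay between them. Ptger4, a prostaglandin E2 receptor that raises cAMP, stood at 1.39 (V1), 1.24 (V2), 1.93 (C1) and 1.06 FPKM (C2). The groups overlapped, and the log2 difference was -0.09 with a 95% interval of -0.87 to 0.69 (limma adjusted p = 0.880). It was 0.17 without C1 and -0.34 without C2. Its gene, at chromosome 15, 5206661 to 5244187 on the minus strand, overlaps Ttc33 on the other strand, whose level was 16.3 to 22.1 FPKM. Whether strand was used in counting is not given by the labels, and without strand the fragments of these genes cannot be told apart. Ptger2, the other cAMP-raising receptor, stood at 0.382 (V1), 0.291 (V2), 0.804 (C1) and 0.0507 FPKM (C2), all under 1 FPKM. Ptger2 lies at chromosome 14, 44988195 to 45003820, on the plus strand.

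The order of levels was nearly the same in the vestibular libraries: Ptgds, Hpgd, Ptgis and Cbr2 came first, and Ptgs2, Ptger4 and Ptger2 last. Among neighbours in that order, Ptges (25.4 and 16.5 FPKM) and Hpgds (24.6 and 18.9) did not differ beyond their spread. In C1 the order began with Ptgds, Hpgd, Ptges and Hpgds, and in C2 with Ptgds, Ptges, Ptgs2 and Cbr2. Only Ptger2 was lower than Hpgds in C2, where Hpgd also lay under Ptger4.

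**Figure D4:**
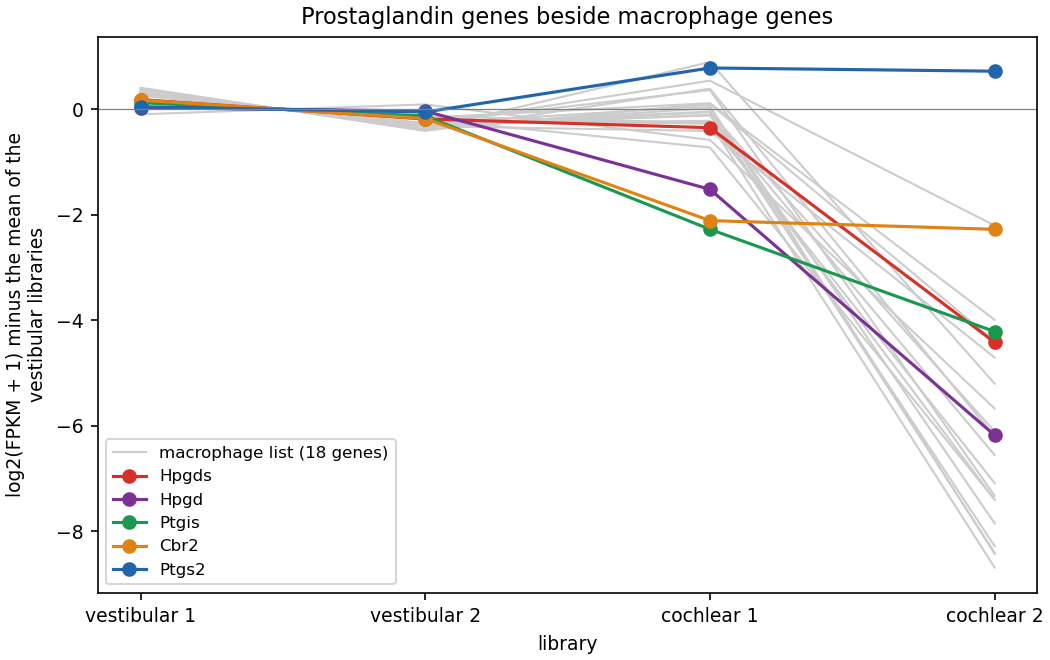
Values of log2(FPKM + 1) in each library, relative to the mean of the vestibular libraries, for 5 prostaglandin genes (coloured) and the 18 macrophage genes with a mean of at least 1 FPKM (grey); lines only join the points of a gene. Hpgds and Hpgd lie low with the macrophage genes in cochlear library 2, Ptgis and Cbr2 are already lower in cochlear library 1, and Ptgs2 is higher in both cochlear libraries.

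The genes with the most similar profile over the 4 libraries were found by the root mean square difference of centred log2(FPKM + 1), for the 6 members that ranged over at least 2 on that scale. For Hpgds they included Cd180 (0.08) and Inpp5d (0.08), both known from leukocytes, and 83 of 9572 genes lay within 0.5. For Hpgd they were the microglia and macrophage receptor gene Cx3cr1 (0.40), Wfdc17 (0.49) and Ncf1 (0.51). For Ptgis they were Fxyd2 (0.32), Rnase1 (0.43) and Cd33 (0.45), and for Cbr2 Smpd3 (0.09), the basement membrane gene Nid2 (0.21) and the extracellular superoxide dismutase gene Sod3 (0.22). Ptgds was closest to the bicarbonate transporter gene Slc4a10 (0.19), the cell adhesion gene Nfasc (0.48) and S100b (0.50), which had 14.2 (V1), 178 (V2), 4.32 (C1) and 2.36 FPKM (C2). Ptgs1 was closest to the immediate early genes Ier2 (0.25) and Zfp36 (0.30) and to Cd38 (0.31). Within 0.5 lay 63 genes for Ptgs1, 74 for Cbr2, 4 for Ptgis, 3 for Ptgds and 2 for Hpgd. Closeness over 4 libraries is a description only.

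The remaining genes of the pathway were taken from lists that were chosen with earlier results of these data known, so their counts and medians are descriptions. Limma called 0 of them past the threshold. Upstream, of 15 phospholipase A2 genes 7 were kept, 3 of them with the higher mean in vestibular and 4 in cochlear cultures (median log2 difference -0.42, against 0.01 over all genes). Pla2g4a, the cytosolic enzyme that releases arachidonic acid, had 23.6 (V1), 28.1 (V2), 18.5 (C1) and 16.0 FPKM (C2) (log2 difference 0.55, limma adjusted p = 0.221). Pla2g5, a secreted enzyme named here after its values were seen, ran the other way, with 4.50 (V1), 2.45 (V2), 31.7 (C1) and 40.3 FPKM (C2) (log2 difference -3.08, limma adjusted p = 0.0914). Pla2g7, which cleaves platelet-activating factor, was the most abundant, with 129 (V1), 78.0 (V2), 216 (C1) and 164 FPKM (C2), and the lysosomal Pla2g15 had 50.2 (V1), 43.9 (V2), 42.0 (C1) and 12.8 FPKM (C2).

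Of 6 other synthase genes in the files 5 were kept, 2 with a positive and 3 with a negative difference (median -0.01). Ptges3 had 62.0 (V1), 64.1 (V2), 70.4 (C1) and 69.5 FPKM (C2). Ptges2, a membrane-associated synthase, had 14.2 (V1), 7.88 (V2), 9.26 (C1) and 12.4 FPKM (C2). Fam213b, which encodes a prostamide and prostaglandin F synthase, had 34.1 (V1), 21.4 (V2), 25.3 (C1) and 19.7 FPKM (C2). The thromboxane synthase gene Tbxas1 had 20.0 (V1), 7.34 (V2), 14.2 (C1) and 0.204 FPKM (C2), so it was nearly absent in the same library as Hpgds and Hpgd. Akr1b3, an aldo-keto reductase gene, was listed at 3.28 (V1), 0.00131 (V2), 5.45 (C1) and 0 FPKM (C2). The ribosomal protein gene Rpl26 was listed at 0 in all 4 libraries, so such values may be failed estimates.

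Among 7 other prostanoid receptor genes, 1 was kept, with a log2 difference of 0.42. Ptger3 had at most 1.94 FPKM (in C1) and Ptgir at most 1.67 (in C2). The prostaglandin D2 receptor genes Ptgdr and Ptgdr2 had at most 0.980 and 0.111 FPKM in any library.

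All 7 transport and clearance genes were kept, 4 with a positive and 3 with a negative difference (median 0.24). Slco2a1, the uptake carrier that brings prostaglandins to the Hpgd enzyme, had 17.8 (V1), 7.56 (V2), 27.0 (C1) and 26.4 FPKM (C2) (log2 difference -1.13, limma adjusted p = 0.294). The ratio of Hpgd to Slco2a1 FPKM was 5.84 (V1), 13.2 (V2), 1.29 (C1) and 0.0158 (C2). Cbr1, which reduces prostaglandin E2, had 47.5 (V1), 39.2 (V2), 43.7 (C1) and 59.6 FPKM (C2), and its groups overlapped. Ptgfrn, which encodes a protein bound to the prostaglandin F receptor, had 23.3 (V1), 48.5 (V2), 22.4 (C1) and 29.1 FPKM (C2).

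In the lipoxygenase branch, which makes leukotrienes from the same arachidonic acid, 7 of 14 genes were kept and 6 were higher in vestibular cultures (median 0.42; 4 of 7 and 0.08 without cochlear library 2). Alox5ap, the activating protein of 5-lipoxygenase, had 74.1 (V1), 36.9 (V2), 61.4 (C1) and 1.68 FPKM (C2). Lta4h, the leukotriene A4 hydrolase, had 35.7 (V1), 31.6 (V2), 27.3 (C1) and 30.1 FPKM (C2), and the leukotriene C4 synthase gene Ltc4s 21.8 (V1), 11.4 (V2), 8.99 (C1) and 7.83 FPKM (C2). The macrophage genes were lowest in the same library as Alox5ap, and their part was not tested.

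**Figure D5:**
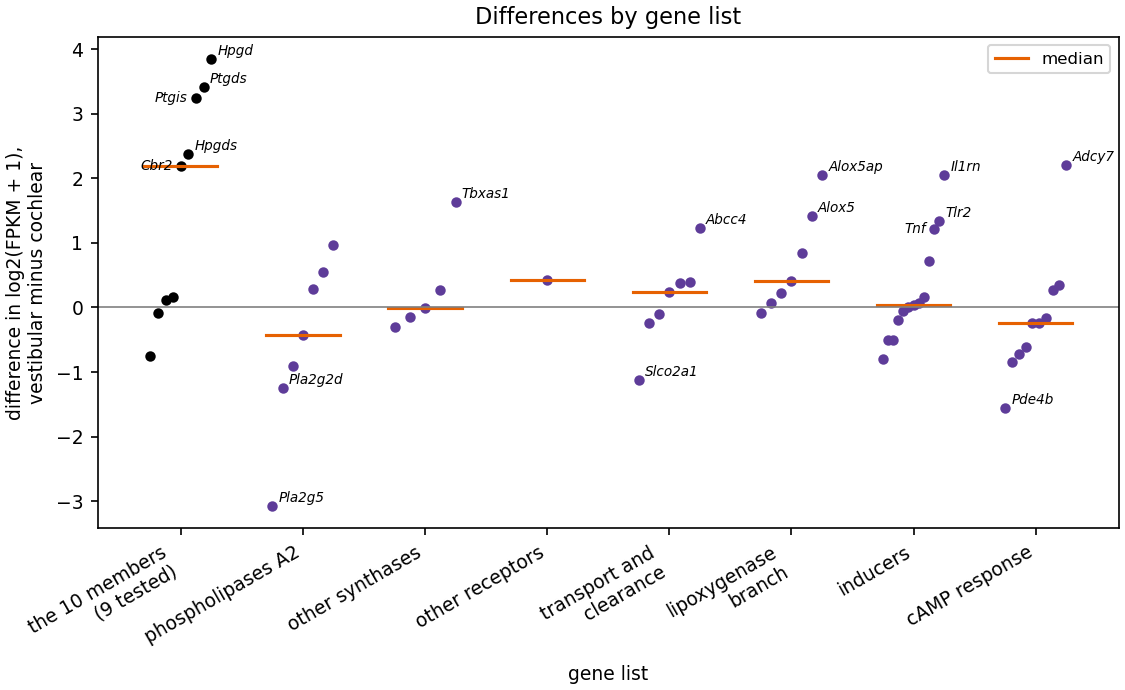
Difference in log2(FPKM + 1), vestibular minus cochlear, of each gene kept, by list; orange bars are list medians, and genes beyond 1.1 in either direction are named. The median of the 9 members tested is 2.19 (0.35 without cochlear library 2), and the medians of the 7 other pathway lists plotted lie between -0.42 and 0.42. Cell type lists, not plotted, reach 3.41 (macrophage) and -2.25 (epithelium). The members and lists were chosen with earlier results known, and the list of other receptors holds 1 gene kept.

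Of 15 genes of the signals known to induce Ptgs2 and Ptges, 13 were kept, 8 higher in the vestibular group and 5 in the cochlear group (median 0.04). The tumour necrosis factor receptor gene Tnfrsf1a had 102 (V1), 96.8 (V2), 107 (C1) and 99.8 FPKM (C2), and the NF-kappaB subunit gene Rela 37.5 (V1), 35.3 (V2), 36.0 (C1) and 34.8 FPKM (C2). Cebpb, a transcription factor of the Ptgs2 promoter, had 40.6 (V1), 25.8 (V2), 50.8 (C1) and 42.5 FPKM (C2). The cytokine gene Il1b had 1.40 (V1), 1.68 (V2), 1.40 (C1) and 0 FPKM (C2), and Tnf, another, was also listed at 0 in C2 alone. Among 12 genes listed for the cAMP response, 10 were kept, 3 with a positive and 7 with a negative difference (median -0.24). The list includes Adcy7, whose enzyme makes cAMP. Adcy7 was among the 3 positive genes, with 30.9 (V1), 18.9 (V2), 18.4 (C1) and 0.535 FPKM (C2). The phosphodiesterase gene Pde4b had 9.69 (V1), 7.47 (V2), 27.4 (C1) and 26.5 FPKM (C2) (log2 difference -1.55, limma adjusted p = 0.0955). Fos had 41.1 (V1), 3.10 (V2), 40.8 (C1) and 12.3 FPKM (C2), and Dusp1 42.3 (V1), 15.9 (V2), 34.9 (C1) and 27.8 FPKM (C2), so that V1 and C1 were above V2 and C2 in both, as in Ptgs1. Other genes of the cAMP list, among them Fosb, Nr4a1, Per1 and Pde4b, did not have this order.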

How the data were processed

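The deposited values are FPKM, 1 value per gene symbol and library, computed by the authors, per the file headers. The submitters' processing notes name Cuffdiff 2.2.1, TopHat2 2.1.1, SAMtools 0.1.18 and Bowtie2 2.2.8 and the mm10 build; per the labels' protocols, RNA was extracted with TRIzol and libraries were made with a stranded mRNA kit. For the annotation, strand setting and scaling between libraries, nothing is stated in the sources used here. Genes with a mean of at least 1 FPKM were kept and log2(FPKM + 1) was compared with limma 3.58.1 in R 4.3.3 (eBayes with a trend, two-sided, prior degrees of freedom 1.71). In 10 simulations the same fit recovered 54.7% of changed genes at a log2 change of 2 and 84.6% at 4. It also called a mean of 7.1 and 10.1 unchanged genes, so a real difference of such a size can be missed. The scale understates differences of low genes. Alternatives changed the pseudocount, filter, scaling, trend, replicate block and libraries used. Gene positions came from GENCODE M21 (GRCm38). The members, gene lists and motifs were chosen with earlier results or the sequences of these genes known. Named genes were all members, the 3 most abundant genes of each pathway list, the 2 most abundant genes of each marker list and those under 1 FPKM throughout, and the 3 closest profiles (mean of at least 5 FPKM, no predicted or small RNA symbols); other genes were named after their values were seen. Not every gene the rule covers is reported here.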

Additional observations from a re-analysis of the deposited data

How the results depend on the processing

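All 4 genes past the threshold are genes outside the prostaglandin group, and their number was 2 without a filter on low values, 0 with the replicate number as a block and 0 in each fit without 1 library (limma; at an unadjusted p under 0.05, 1887 genes with the block and 1018 to 2724 without 1 library). No member passed in any of these fits. The replicate block rests only on a shared number: the deviations of same-numbered libraries from their group means correlated at 0.0432 across genes, and with 2 numbers the samples cannot be shown to be paired. Ptgs2, Ptgds, Hpgds, Ptgis, Hpgd and Cbr2 kept their direction in all 11 alternatives. Most of these could not have reversed it. The groups do not overlap in these genes, so only the changes of scaling could give the other sign. The log2 difference of Ptgs1 was -0.86 without vestibular library 1 and -0.29 without cochlear library 2, that of Ptges -0.18 without vestibular library 1, and that of Ptger4 0.17 without cochlear library 1, with highest or lowest values of 1.20, 0.41 and -0.34 when another library was left out; the cause was not tested. Leaving out single libraries gave 0.35 to 4.42 for Hpgds, 1.52 to 6.18 for Hpgd, 2.27 to 4.21 for Ptgis and 1.94 to 4.88 for Ptgds. Ptger4 falls under a filter of 5 FPKM. In fits without 1 library, the lone sample was assumed to vary like the other group. Rescaling to a common sum moved the median of all genes from 0.01 to -0.04.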

Other observations

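Over all genes kept, 118 (0.894%) were under 1 FPKM in cochlear library 2 and at least 8 FPKM in each of the other 3 libraries, and Hpgds and Hpgd were among them. The same pattern was found in 3 genes for cochlear library 1, 5 for vestibular library 1 and 11 for vestibular library 2, with no prostaglandin gene in those. The limits of 1 and 8 FPKM were set after the values were seen.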
